A study of Mus musculus with 10 samples.

Results

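The erythropoietin receptor pathway was followed through 10 genes: the receptors Epor and Kit, the kinases Jak2 and Lyn, the transcription factors Stat5a and Stat5b, the target kinase Pim1, the feedback inhibitors Cish and Socs3, and the phosphatase Ptpn6. They were chosen by name, with earlier results of these data known. They are 10 of the 23309 named genes in the RNA table. By the closest start site, 8 of 4579 listed KLF3 peaks and 9 of 3800 listed KLF1 peaks are assigned to them. Newly made RNA, labelled for 30 minutes with 500 µM 4-thiouridine (4sU), came from 3 J2E-KLF3-ER libraries (clones A, C and E, all given 4-hydroxytamoxifen at 200 nM) and from 3 J2E libraries (no transgene, of which 2 are labelled as tamoxifen-treated and the third as ethanol-treated). J2E is a fetal liver erythroid line immortalised with a retrovirus that carries v-myc, and J2E-KLF3-ER cells add a transgene in which KLF3, a repressor of transcription, is joined to an estrogen receptor domain and becomes active with tamoxifen. Chromatin gave 1 KLF3 library from J2E-KLF3-ER clone C (estrogen receptor antibody) and 1 KLF1 library from K1-ER clones A and C, which are Klf1-null erythroblasts carrying inducible KLF1-ER (KLF1 antibody). Each had an input library, was fixed 3 hours after tamoxifen and came from 3 pooled replicates. For the RNA libraries the labels used here give no time after tamoxifen, so RNA and binding may differ in time.

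Erythropoietin binds a dimer of its receptor and activates JAK2, which is bound to the receptor's tail. JAK2 phosphorylates the receptor, STAT5A and STAT5B dock there, and the STAT5 dimers enter the nucleus and switch on survival genes and their own inhibitors. In erythroid progenitors the pathway keeps cells alive while they mature, and KIT, the receptor for stem cell factor, works beside it at earlier stages. LYN is a SRC-family kinase that binds the erythropoietin receptor and has been studied in J2E cells, which mature on erythropoietin. The labels' growth medium, with 10% serum, lists no added erythropoietin.

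The RNA table holds 1 pooled FPKM value per group (fragments scaled to transcript length and to the number mapped), so no spread between libraries can be set beside a level, the depth per library is unknown, and the ethanol-treated J2E library could not be left out. Differences between the lines, between clones and between tamoxifen and ethanol cannot be told apart from activation of the fusion, because no untreated J2E-KLF3-ER library is in the comparison. Changes are called at the authors' q-value below 0.05, over 9619 tested genes. Erythroid markers were present: Gata1 stood at 25.2 FPKM in J2E-KLF3-ER and 30.6 FPKM in J2E, and the transferrin receptor gene Tfrc at 101 FPKM in J2E-KLF3-ER and 102 FPKM in J2E. The 8 erythroid markers with a row, Epor among them, summed to 310 FPKM in J2E-KLF3-ER and 449 FPKM in J2E. Epor itself is 39.4 FPKM of the first sum and 85.4 FPKM of the second, so the sums are not separate from the Epor result. No sum without the called genes was computed, and no general fall of the markers is read from them. Of the 8 markers 3 fell (Epor, Klf1 and Slc4a1), against 1.90% of all tested genes. Slc4a1 stood at 20.8 FPKM in J2E-KLF3-ER and 39.2 FPKM in J2E. Klf1 stood at 55.6 FPKM in J2E-KLF3-ER and 122 FPKM in J2E. The other 5 were not called. Among these Alas2 was higher by sign, at 9.28 FPKM in J2E-KLF3-ER and 6.21 FPKM in J2E (q = 0.262 in the authors' deposited table). The part that the falls of Klf1 and Slc4a1 have in the Epor result was not tested. The 10 markers of other blood cells summed to 194 FPKM in J2E-KLF3-ER and 181 FPKM in J2E, nearly all of it from Pf4, Itga2b and Csf1r, with no call, while Ptprc and Mcpt8 were listed at 0 in both groups. In RNA pooled from many cells, fewer cells of a type and less RNA per cell cannot be told apart.

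Epor was the only one of the 10 genes that changed at the authors' threshold. Of the 6 tested genes, 1 fell and none rose; among all tested genes 1.90% fell and 0.821% rose, and the tested genes are 41.3% of those named. Epor was also the single call, with none rising, at a q below 0.01 (background 1.15% lower and 0.353% higher), at a q below 0.10 (2.87% and 1.69%) and among changes of at least 2-fold (0.863% and 0.291%). Before adjustment, Pim1 (p = 0.0109) and Stat5b (p = 0.0355) also lay below 0.05 by the authors' test, a level reached by 7.47% of tested genes downward and 7.93% upward. By sign alone 5 of the 6 were lower in J2E-KLF3-ER, against 46.6% of tested genes. The median log2 fold change of the 6 was -0.35, against 0.03 over all tested genes. As the 10 genes were chosen with earlier results known, nothing is read from how their shares compare with the background. The other 4 genes, Kit, Cish, Socs3 and Ptpn6, were not tested by the authors, and each averaged below 1 FPKM.

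**Figure D1:**
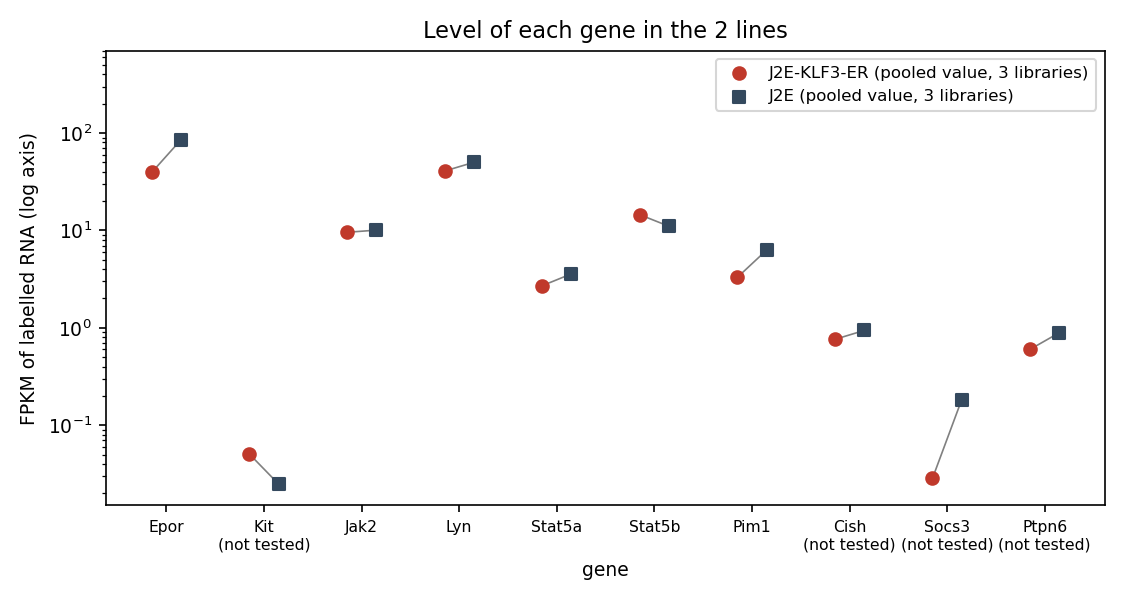
Authors' pooled FPKM of labelled RNA (log axis) for each of the 10 genes, with J2E-KLF3-ER as circles and J2E as squares, 1 value per group and no error available. Epor stands at 39.4 FPKM in J2E-KLF3-ER and 85.4 FPKM in J2E, and the 4 genes marked as not tested lie below 1 FPKM in both.

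Epor encodes the erythropoietin receptor itself. Its newly made RNA stood at 39.4 FPKM in J2E-KLF3-ER and 85.4 FPKM in J2E in the authors' deposited table, 2.17-fold lower in J2E-KLF3-ER. The log2 fold change was -1.12 (q = 0.00408) in the authors' deposited table, and 118 genes shared this lowest q of the table. In J2E, Epor was higher than 95.1% of tested genes, and in J2E-KLF3-ER higher than 86.6%. Ordered from the strongest fall, it ranked 69 of the 262 called genes. Its chromosome, 9, had a median log2 fold change of -0.04 over tested genes.

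The Epor row spans chromosome 9, 21763342 to 21768020, on mm9, and the gene runs on the minus strand. A KLF3 peak and a KLF1 peak share the same place in an intron of the gene. The KLF3 peak lies at 21766902 to 21767218 with an enrichment of 8.01, above 50.4% of its list. The KLF1 peak lies at 21766732 to 21767256 with an enrichment of 24.2, above 91.2% of its list. Their summits are 3 bp apart, 977 bp (KLF3) and 974 bp (KLF1) downstream of the start site, and the KLF3 interval lies whole within the KLF1 interval, with an overlap of 316 bp.

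The Epor promoter is shown because Epor is the gene that changed, and KLF factors bind CACCC boxes while GATA factors bind GATA motifs. The 250 bases before the start site follow, from RefSeq on GRCm38.p6 (chr9:21963577-21963826, minus strand), 5′ to 3′. Capitals mark matches on either strand to the CACCC-type motif CCNCNCCC and to the GATA motif AGATAA.
Epor promoter: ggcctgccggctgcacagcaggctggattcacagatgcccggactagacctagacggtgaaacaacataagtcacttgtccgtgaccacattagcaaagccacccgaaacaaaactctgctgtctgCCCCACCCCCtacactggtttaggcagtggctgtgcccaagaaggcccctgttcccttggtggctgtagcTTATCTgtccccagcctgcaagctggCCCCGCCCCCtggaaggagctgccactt
The run of capitals at positions -124 to -115 and that at -28 to -19, counted back from the base before the start, each hold 2 overlapping matches to CCNCNCCC. The match to AGATAA is on the opposite strand at -54 to -49. CCNCNCCC occurs in 49.5% of the 32851 promoter windows of the table, which run from 250 bases before to 50 after a start, so its presence sets Epor apart little. AGATAA occurs in 11.2% of them, and the narrower CCNCACCC, which Epor holds once at -124 to -117, in 16.6%. Of the 9 genes found in the table, all had a match to CCNCNCCC in at least 1 window, and Epor alone had one to AGATAA or to CCNCACCC. No gene had the letters CCACACCC, which occur in 3.56% of windows. Both Epor peak summits lie beyond this window, further into the gene.

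**Figure D2:**
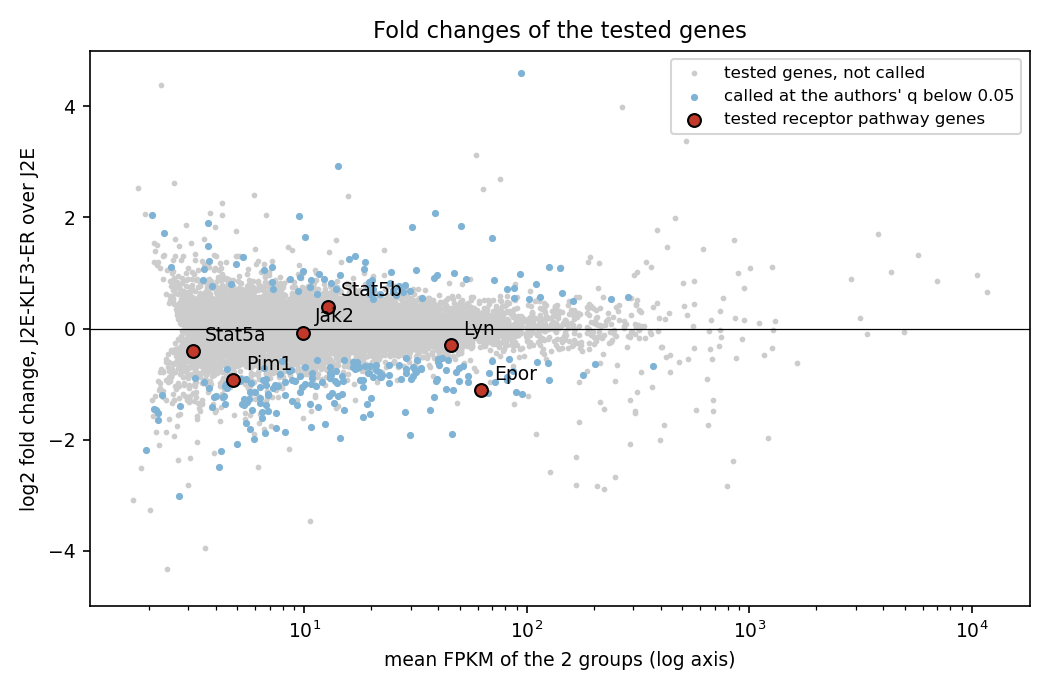
Log2 fold change of labelled RNA, J2E-KLF3-ER over J2E (vertical axis), against mean FPKM of the 2 groups (log axis), for tested genes, with called genes in blue and the 6 tested pathway genes in red; 49 tested genes beyond 5 on the log2 scale, or at 0 in 1 group, are not drawn. Epor sits at -1.12 among the called genes, Pim1 at -0.93 among genes of lower level that were not called.

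The kinases did not pass the threshold. Jak2 (chromosome 19, 29326317 to 29387570), which encodes the kinase bound to the receptor, had 9.57 FPKM in J2E-KLF3-ER and 10.1 FPKM in J2E (log2 fold change -0.07, q = 0.911 in the authors' deposited table). The Epor level was 4.12 times the Jak2 level in J2E-KLF3-ER and 8.48 times in J2E, as ratios of FPKM. Lyn (chromosome 4, 3605267 to 3718759) had 40.7 FPKM in J2E-KLF3-ER and 50.03 FPKM in J2E (log2 fold change -0.30, q = 0.469 in the authors' deposited table). Lyn and Epor thus stood at nearly the same level in J2E-KLF3-ER, with a ratio of 1.03, while in J2E the Lyn level was 0.586 of that of Epor. Kit (chromosome 5, 75971011 to 76052746), the stem cell factor receptor gene, was very low, at 0.0506 FPKM in J2E-KLF3-ER and 0.0249 FPKM in J2E.

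No peak of either list was assigned to Jak2 or Kit, and none lay in their rows or within 10 kb. Lyn had a KLF3 peak alone, in an intron 297 bp downstream of its start (chromosome 4, 3605383 to 3605585, enrichment 3.80). It is among the weakest of its list, at rank 4553 of 4579.

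The STAT5 genes lie side by side on chromosome 11 and differed in sign, neither past the threshold. Stat5a (100720664 to 100746483) had 2.70 FPKM in J2E-KLF3-ER and 3.58 FPKM in J2E (log2 fold change -0.41, q = 0.533 in the authors' deposited table). Stat5b (100642044 to 100711899) had 14.5 FPKM in J2E-KLF3-ER and 11.0 FPKM in J2E (log2 fold change 0.40, q = 0.272 in the authors' deposited table). Stat5b was the higher of the pair in both lines, 5.37 times Stat5a in J2E-KLF3-ER and 3.08 times in J2E. Their FPKM values together came to 17.2 in J2E-KLF3-ER and 14.6 in J2E. The genes are near-identical over much of their coding sequence, and the sources used here do not say how reads matching both were shared out, so the split between them is uncertain.

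All peaks of this pair were assigned to Stat5a. A KLF3 peak covers the start site of Stat5a (chromosome 11, 100721592 to 100721848, enrichment 4.87), with its summit 130 bp upstream. It ranks 4261 of 4579, and its near end is 9693 bp from the Stat5b row. A KLF1 peak lies in an intron 1657 bp downstream (100723343 to 100723568, 6.83). Beyond the gene's 3′ end, 26043 bp (KLF3) and 26015 bp (KLF1) from the start, a KLF3 peak (100747738 to 100747942, 6.37) lies whole within a KLF1 peak (100747613 to 100748018, 17.1), with summits 28 bp apart.

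The Stat5a start site used for that KLF3 peak lies 1134 bp inside the gene row on mm9, and the inner of the 2 RefSeq start sites lies 1133 bp inside the gene on GRCm38.p6. The promoter of that inner start is shown because the KLF3 peak reaches from 206 bases before the start to 50 after it. The 250 bases before the start site follow (chr11:100860234-100860483, plus strand), with matches to CCNCNCCC on either strand in capitals.
Stat5a inner promoter: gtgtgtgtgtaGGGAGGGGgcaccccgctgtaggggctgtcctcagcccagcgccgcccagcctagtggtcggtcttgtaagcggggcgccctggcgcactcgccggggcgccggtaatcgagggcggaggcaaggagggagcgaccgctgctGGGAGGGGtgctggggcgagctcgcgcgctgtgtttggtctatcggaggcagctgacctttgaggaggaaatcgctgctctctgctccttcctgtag
Both matches, at -239 to -232 and -97 to -90, read GGGAGGGG on this strand, a G-rich form without the CACCC core. If the mm9 start is the same site, the match at -239 to -232 lies outside the span of the KLF3 peak. The match at -97 to -90 would then lie within it. The outer Stat5a promoter of the table had no match.

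The target gene Pim1 (chromosome 17, 29627989 to 29632404), which encodes a serine/threonine kinase that promotes survival and is switched on by STAT5, had the most peaks. Its RNA stood at 3.29 FPKM in J2E-KLF3-ER and 6.28 FPKM in J2E, a log2 fold change of -0.93 that missed the threshold (q = 0.150, both from the authors' deposited table). Among tested genes, 3.17% had a lower log2 fold change than Pim1 and 2.24% a lower one than Epor. The Pim1 promoter carries a KLF3 peak (chromosome 17, 29627198 to 29627607, enrichment 18.2, rank 290) with its summit 547 bp upstream of the start, the highest KLF3 peak of the 10 genes. It overlaps by 383 bp a KLF1 peak (29627073 to 29627581, enrichment 69.7) that is the fifth highest of its list, with its summit 600 bp upstream and 53 bp from that of KLF3.

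Pim1 had 4 further KLF1 peaks upstream. Those at 6057 bp and 17389 bp (enrichment 5.66 and 16.2) are annotated as distal and overlap no KLF3 peak. Those at 52466 bp and 53862 bp (7.14 and 5.59) are annotated as intergenic. A second KLF3 peak (5.82), 53616 bp upstream, overlaps the furthest of them by 66 bp, with summits 246 bp apart. Pim1 is 1 of 22 genes with at least 5 peaks in the KLF1 list. Assignment by the closest start site does not show that a site so far away acts on Pim1.

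The feedback inhibitors had little labelled RNA. Cish (chromosome 9, 107199019 to 107204292), which encodes a STAT5-induced inhibitor that binds the receptor, had 0.761 FPKM in J2E-KLF3-ER and 0.939 FPKM in J2E. Socs3 (chromosome 11, 117827400 to 117830680), whose product blocks JAK kinase activity, had 0.0285 FPKM in J2E-KLF3-ER and 0.183 FPKM in J2E. Ptpn6 (chromosome 6, 124670735 to 124688727) encodes SHP-1, a phosphatase that dampens receptor signalling, and had 0.601 FPKM in J2E-KLF3-ER and 0.892 FPKM in J2E. All 3 were lower by sign in J2E-KLF3-ER, but at these levels the authors made no test. The authors' deposited table has -2.69 as the Socs3 log2 fold change, which was -0.20 with 1 FPKM added to both values.

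Cish had a KLF3 peak over its start site and none of KLF1 (chromosome 9, 107198981 to 107199196, enrichment 5.23, rank 4057). It reaches from 39 bases before the start to 176 after it. The RefSeq Cish window holds 2 matches to the STAT motif TTCNNNGAA, which 8.30% of windows hold at least once and 0.457% in 2 or more places. They lie just after the RefSeq start, and are shown in capitals because Cish is a known STAT5 target (chr9:107296659-107296678, plus strand, GRCm38.p6).
Cish STAT-type pair: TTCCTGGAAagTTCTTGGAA
Whether the RefSeq start is the start used on mm9 cannot be told, as the gene's length differs between the 2 annotations. Socs3 was the only other of the 9 genes with a TTCNNNGAA match, at -154 to -146. The 4 overlapping CCNCNCCC matches of Cish all lie within a single run of 11 G.

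Socs3 had a KLF3 peak 5751 bp downstream of its start (chromosome 11, 117824844 to 117825034, enrichment 5.88) and a KLF1 peak 35091 bp downstream (117795402 to 117795806, 9.11), both beyond its 3′ end and 29340 bp apart between summits. No peak was assigned to Ptpn6. Within 10 kb of its row lay a KLF3 peak assigned to Phb2, 8312 bp away, and a KLF1 peak assigned to Mir200c, 1642 bp away.

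**Figure D3:**
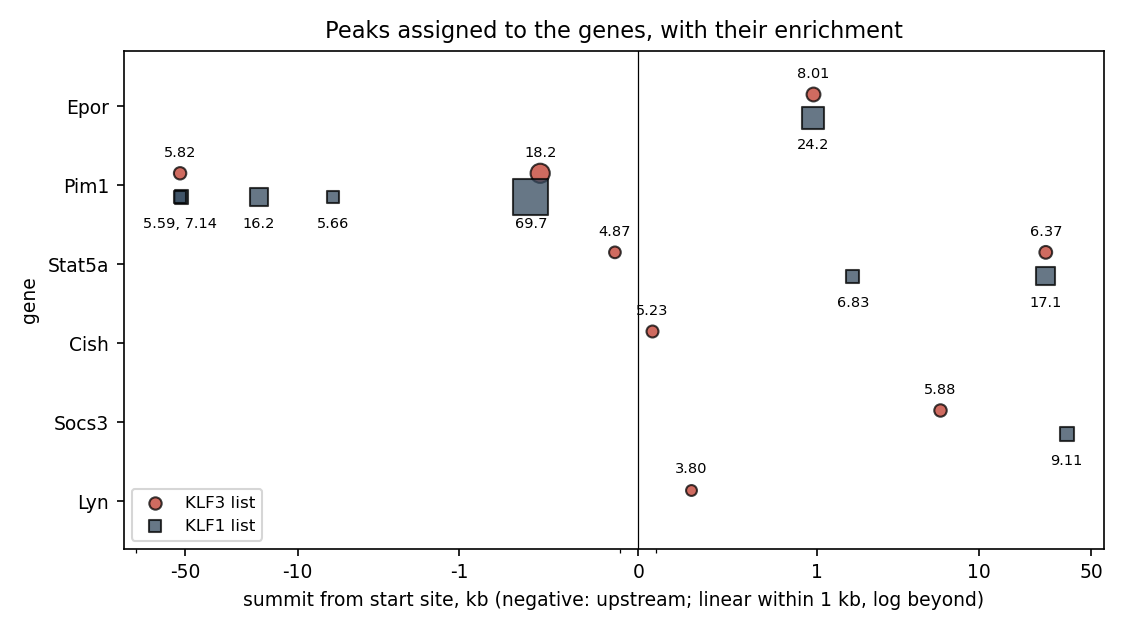
Summits of the KLF3 peaks (circles) and KLF1 peaks (squares) assigned to 6 of the genes, by distance from the start site in kb (linear within 1 kb and log beyond), with symbol size and label giving the authors' enrichment. KLF3 and KLF1 summits lie within 53 bp of each other in the Epor intron, at the Pim1 promoter and beyond Stat5a, while Cish and Lyn have a KLF3 peak alone.

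In all, 6 of the 10 genes had a KLF3 peak and 4 a KLF1 peak, and the 4 with KLF1 all had KLF3 as well. Among all named genes 16.1% had a KLF3 peak, 11.9% a KLF1 peak and 6.67% both. Among tested genes the shares were 32.4%, 19.1% and 13.1%, and of the 6 tested pathway genes 4 had a KLF3 peak and 3 peaks of both. At 3 genes, Epor, Pim1 and Stat5a, a KLF3 and a KLF1 interval overlapped, which holds for 5.49% of named and 10.7% of tested genes. Of the 8 KLF3 peaks 4 overlapped a KLF1 peak, against 34.0% of the whole list. Of the 9 KLF1 peaks 4 overlapped a KLF3 peak, against 39.3%. Since the 10 genes were chosen with earlier results known, no excess of peaks or overlaps is read from these shares. The enrichment values are the authors' and serve here only to rank peaks within a list. Factor, line and antibody all differ between the lists, so no height is compared across them.

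The authors' KLF1 list also names, beside each peak, the nearest gene that was up or down in their comparison of K1 and K1-ER cells, without values. Epor, Pim1 and Cish are among the 557 genes named as up, and none of the 10 is named as down. The share named as up was 2.39% over all named genes and 4.16% over tested genes, and that named as down 0.566% over all named genes. For the same reason as above, no excess is read from the count among the 10. The headers do not say in which of the 2 cell lines such a gene was higher. The gene named is the nearest of those up or down, which need not be the gene nearest to the peak: Epor is named beside 14 peaks and has 1 assigned to it, and Cish is named beside 3 and has none. A gene that changed in that comparison but is not the nearest such gene to any KLF1 peak is not named, so Jak2, Stat5b, Kit, Lyn and Ptpn6 may or may not have changed there. Another column flags the closest gene of each peak: it reads up for Epor and Pim1 and neither up nor down for Stat5a and Socs3, and 14.0% of genes with a KLF1 peak are flagged as up.

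Around the 10 genes, 89 other genes of the pathway fell into 6 lists, of which 62 were tested, with 3 falling and 3 rising. Called genes were 9.68% of them, against 2.72% of all tested genes; several called genes were already known from these data when the lists were written, so nothing is read from that share. The median log2 fold change of the 62 was close to 0 (-0.005). The list medians were 0.07 for partner kinases and adaptors (10 of 16 genes tested), 0.14 for other STATs (3 of 5), -0.09 for receptors and ligands (3 of 10), 0.07 for negative regulators (17 of 23), -0.04 for the PI3K, AKT and RAS branch (15 of 17) and -0.05 for targets of the receptor (14 of 18), against 0.03 over all tested genes. Epo, the ligand gene, was listed at 0 in both lines.

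Among 10 tested partner kinases and adaptors 1 rose: Btk, which encodes a TEC-family kinase downstream of cytokine and antigen receptors, had 8.82 FPKM in J2E-KLF3-ER and 4.27 FPKM in J2E (log2 fold change 1.05, q = 0.0287 in the authors' deposited table) and no peak. Among 17 tested negative regulators 1 fell: Dok1, which encodes a docking protein that damps RAS signalling, had 2.86 FPKM in J2E-KLF3-ER and 10.5 FPKM in J2E (log2 fold change -1.88, q = 0.00408 in the authors' deposited table), also with no peak. Neither the 3 tested STAT genes outside the STAT5 pair nor the 3 tested receptors nor the 15 tested genes of the PI3K, AKT and RAS branch held a call. The highest of these STAT genes and receptors were Stat6 (-0.03) and Stat3 (0.48), and Igf1r (0.28) and Tfr2 (-0.27), given as log2 fold changes from the authors' deposited table. The sources used here do not say whether reads from the retrovirus fall into the Myc row.

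Of 14 tested genes known as targets of the receptor, 2 fell and 2 rose. Trib3, a pseudokinase gene whose product restrains AKT, had 4.16 FPKM in J2E-KLF3-ER and 9.51 FPKM in J2E (log2 fold change -1.19, q = 0.00707 in the authors' deposited table). It had overlapping peaks of both factors at its promoter, with a KLF3 enrichment of 14.3 and a KLF1 enrichment of 19.6. Myc, the growth-promoting transcription factor gene, had 3.18 FPKM in J2E-KLF3-ER and 9.67 FPKM in J2E (log2 fold change -1.60, q = 0.00408 in the authors' deposited table), with 2 KLF3 summits in a single interval and no KLF1 peak. Podxl, a surface sialomucin gene, had 3.597 FPKM in J2E-KLF3-ER and 1.09 FPKM in J2E (log2 fold change 1.72, q = 0.00408 in the authors' deposited table), with 3 KLF1 peaks and none of KLF3. Cited2, a co-regulator gene, had 15.1 FPKM in J2E-KLF3-ER and 3.73 FPKM in J2E (log2 fold change 2.02, q = 0.00408 in the authors' deposited table) and no peak.

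Of the 62 tested pathway genes, 51.6% had a KLF3 peak and 33.9% a KLF1 peak, against 32.4% and 19.1% of all tested genes. The authors' list named 13 of the 89 as up and 2 as down in their comparison of K1 and K1-ER cells, where 2.39% of all named genes were named as up and 0.566% as down. Since these lists were written with earlier results known, nothing is read from those counts either.

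**Figure D4:**
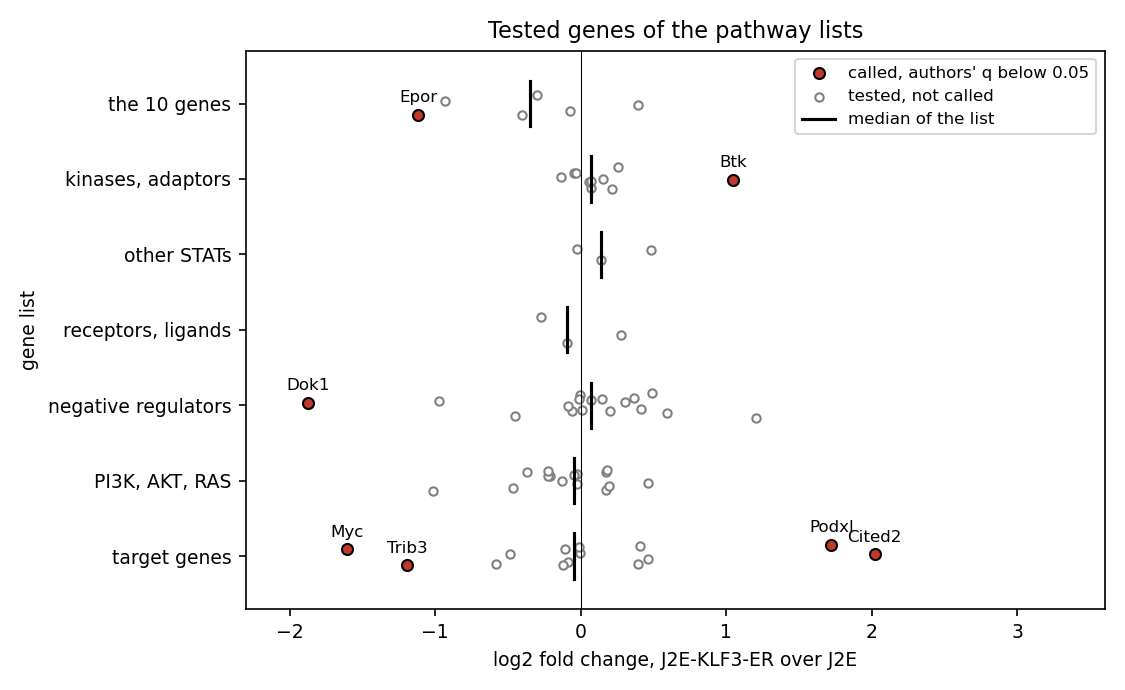
Log2 fold change of labelled RNA, J2E-KLF3-ER over J2E, for each tested gene of the 10 and of 6 further pathway lists; filled points are called at the authors' q below 0.05, open points are not, and the vertical bar is the list median. Epor is the lowest of its 6 tested genes, and most genes of every list lie within 0.5 of zero.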

How the data were processed

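Labelled RNA was measured in 3 J2E-KLF3-ER and 3 J2E libraries, and binding in 1 KLF3 and 1 KLF1 library with their inputs. The submitters' processing notes name mm9 as build and list MACS 1.4.2, MACS2 and TopHat2 2.0.10 without a role, and no source used here gives the tool of the RNA test. In the authors' RNA table, per the file headers, each group has 1 pooled FPKM, and each gene a log2 fold change (J2E-KLF3-ER over J2E), p-value, q-value and test statistic; the deposited statistic is a score and was left aside. The peak lists hold the authors' enrichment ratio per peak. Coordinates are as deposited.

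The 10 genes and all lists were chosen with earlier results of these data known. No library has a value of its own in that table, so calls use the authors' q-value, as the design allowed. It equals a Benjamini-Hochberg adjustment over 9619 tested genes within 5.26e-07. Whether the J2E libraries were separate cultures is not labelled, so these p-values may measure technical spread. The 93 blank rows were dropped, and gene names turned into dates were read back. In the background shares of genes with a peak or named as up or down, a row joining several genes counted once. It counted when any of its genes was listed. Peaks overlapped at 1 bp or more. The named genes are the 10, every called gene of each list, and otherwise its 2 highest by mean FPKM. For the PI3K, AKT and RAS branch those 2 are not reported here. Of the 10 genes, 9 matched the RefSeq promoter table, with 13 windows. Number of per-sample columns left unused: 0. Python 3.11.15, pandas 2.3.3, NumPy 2.4.6 and matplotlib 3.10.9 were used, and the adjustment, overlap and motif functions were tested on simulated data.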

Additional observations from a re-analysis of the deposited data

How the results depend on the processing

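No paired analysis was possible because the deposited table holds 1 pooled value per group, and for the same reason no replicate could be left out. The single falling gene among the 10, and the absence of a rising one, were found at a q below 0.01 and 0.10. The same held with a change of at least 2-fold, and with q recomputed over genes of at least 1 FPKM in both groups. For the recomputed q, the share of all genes called was not computed. Log2 fold changes of the 10 genes were recomputed with pseudocounts of 1 and 0.1 FPKM, or centred on all tested genes or the chromosome. All 40 values had the deposited sign, and Epor ranged from -1.14 to -1.08. A pseudocount cannot change a sign. Centring on all genes shifted values by 0.03, less than the smallest deposited change (Jak2, -0.07), so neither setting tests the sign. Sizes of the untested genes did move. With 1 FPKM added, Kit went from 1.03 to 0.04, Ptpn6 from -0.57 to -0.24, Cish from -0.30 to -0.14 and Socs3 from -2.69 to -0.20. The pathway lists held 4 falling and 5 rising genes at a q below 0.10 (2.87% and 1.69% of all tested genes) and 3 falling and 2 rising at a q below 0.01 (1.15% and 0.353%). Restricting peaks to enrichment at or above the list median left 2 genes with a KLF3 peak (Epor and Pim1). The Epor peak, at 8.01, was only just above that median of 7.94. A limit of 1 kb left 2 genes with a KLF1 peak (the same pair). The shares of all genes under these limits were not computed, so the counts have no background beside them. The motif CCNCACCC was found at 1 gene and CCACACCC at 0. Pooled values and single chromatin libraries set the limit: no spread between libraries can be given.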
